A study of Mus musculus with 12 samples.

Results

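The 9 genes followed here read out or carry the canonical Wnt signal: the target genes Axin2, Sp5, T, Nkd1 and Cdx1, the signal carrier Ctnnb1, and the DNA-binding factors Tcf7, Lef1 and Tcf7l1. They were taken by exact gene name, 9 of the 53715 genes in each of the 2 gene tables. The levels came from 12 RNA-seq libraries in 6 groups of 2. The mouse ES (mES) cell groups were cells given CX-5461 (which blocks RNA polymerase I, the enzyme that makes ribosomal RNA), cells given rapamycin (which inhibits mTOR), cells given rotenone (which blocks complex I of the respiratory chain) and untreated control cells. All 4 mES groups were wild-type E14 cells by the study's methods, and all, control included, grew on embryonic fibroblast feeders in LIF/2i, a medium that holds a MEK inhibitor and CHIR99021 (an inhibitor of the kinase GSK3). The labels state that the feeders were depleted before RNA was taken. The embryo groups were C57BL/6J embryos given CX-5461 and untreated embryos, which the study describes as morulae grown to blastocysts, from superovulated females, with several embryos pooled per library and their cDNA amplified. Each level is in TPM (transcripts per 1000000 transcripts), given for replicate 1 and then replicate 2 of a group.

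In canonical Wnt signalling, secreted Wnt proteins bind Frizzled and LRP receptors, which stops a destruction complex of Axin, APC, casein kinase and GSK3 from marking β-catenin for decay. Stabilised β-catenin enters the nucleus, binds TCF/LEF factors on DNA and turns on target genes, several of which feed back on the pathway. In mouse ES cells TCF7L1 acts mainly as a repressor, also of pluripotency genes, and the GSK3 inhibitor of 2i medium stabilises β-catenin without added Wnt. The control cells had that inhibitor too.

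The promoters of Sp5, T and Axin2 are printed because these are the targets called against control with both CX-5461 and rotenone, and TCF/LEF factors read DNA directly. Each is the window of 250 bases before a RefSeq transcription start on GRCm38.p6, on the gene's own strand, with the TCF/LEF core CTTTGA, or its reverse complement TCAAAG, in capitals. The windows lie at chr2:70474673-70474922 (Sp5, plus strand), chr17:8434173-8434422 (T, plus strand) and chr11:108920099-108920348 (Axin2, plus strand).
Sp5: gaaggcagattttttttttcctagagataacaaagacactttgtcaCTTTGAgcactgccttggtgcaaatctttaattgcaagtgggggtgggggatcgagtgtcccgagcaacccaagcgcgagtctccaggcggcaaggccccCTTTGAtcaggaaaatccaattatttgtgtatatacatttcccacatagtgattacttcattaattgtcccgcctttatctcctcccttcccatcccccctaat
T: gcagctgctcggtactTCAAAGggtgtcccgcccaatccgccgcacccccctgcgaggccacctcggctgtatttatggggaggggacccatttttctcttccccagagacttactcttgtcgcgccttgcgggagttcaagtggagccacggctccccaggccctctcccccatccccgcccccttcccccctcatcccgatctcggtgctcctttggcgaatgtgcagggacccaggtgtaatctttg
Axin2: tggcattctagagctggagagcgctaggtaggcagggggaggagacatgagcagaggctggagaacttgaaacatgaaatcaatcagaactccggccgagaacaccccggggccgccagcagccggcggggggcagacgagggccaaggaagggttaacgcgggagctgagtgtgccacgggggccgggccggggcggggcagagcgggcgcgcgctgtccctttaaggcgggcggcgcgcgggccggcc
The Sp5 window held the core at 204 and 104 bases before the start, and the second of these was part of the longer match CTTTGATC. The T window held it once, at 234 bases before the start, and the Axin2 window did not hold these letters. Of the 32851 windows of the same length in the RefSeq table, 13.8% held CTTTGA on either strand and 0.801% held CTTTGATC, which contains it. Windows were read for 8 of the 9 genes (13 windows), and none was read for Cdx1. Besides Sp5 and T only Lef1 had a match, 2 of them before an internal start, and the windows of Ctnnb1, Tcf7, Tcf7l1 and Nkd1 had none.

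The deposited values of 11 libraries summed to between 999805 and 999914 TPM, and those of embryo control 1 to 639063 TPM. Every library was therefore rescaled to 1000000 before use. TPM keeps no read count, so depth and counting error are unknown. The 8 ES cell markers were at 1 TPM or more in every mES library. They summed to 2843 and 3056 TPM in CX-5461 cells, below every other mES library, against 4160 and 4178 TPM in rapamycin cells, 3597 and 3615 TPM in rotenone cells and 3831 and 4170 TPM in control cells. Of the 8, Klf4 (0.68) and Dppa4 (0.27) were called higher with CX-5461 than in control, and Pou5f1 (-0.88), Zfp42 (-1.33) and Nanog (-0.29, log2) lower. Over all genes, 42% were called higher and 11% lower, and the rise of Dppa4 lay 0.15 below the median change. Zfp42 was uneven with CX-5461, at 271 ± 150 TPM (SD, n = 2). The 12 feeder fibroblast markers, collagen genes and others, were also at 1 TPM or more in every mES library. Their sums were 4223 and 4681 TPM in CX-5461 cells, 2433 and 1884 TPM in rapamycin cells, 3865 and 4157 TPM in rotenone cells, and 1074 and 1448 TPM in control cells. All 12 were called higher with CX-5461 and with rotenone than in control, where 42% and 30.6% of all genes were. In bulk RNA, fewer cells of a type and less RNA per cell cannot be told apart.

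CX-5461 against control asked what blocking ribosomal RNA synthesis did to the pathway's output. In mES cells given CX-5461, Axin2, Sp5, T and Nkd1 rose, and Cdx1 fell. Of the factors, Tcf7 rose and Tcf7l1 fell. Lef1 and Ctnnb1 did not pass the test. Calls are from limma on log2(TPM + 1) over 17638 genes with at least 1 TPM in at least 2 libraries, at a Benjamini-Hochberg adjusted p under 0.05. Across all genes tested, 42% were called higher and 11% lower around a median of 0.43 (log2), so 5 of 9 higher and 2 of 9 lower are counts that do not set these genes as a group apart from the rest. The groups did not overlap for any of the 9, in a comparison where those of 76.8% of all genes tested did not. The library labels name no separate cultures, so p-values measure the spread between these libraries, which the study describes as biologically independent.

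**Figure D1:**
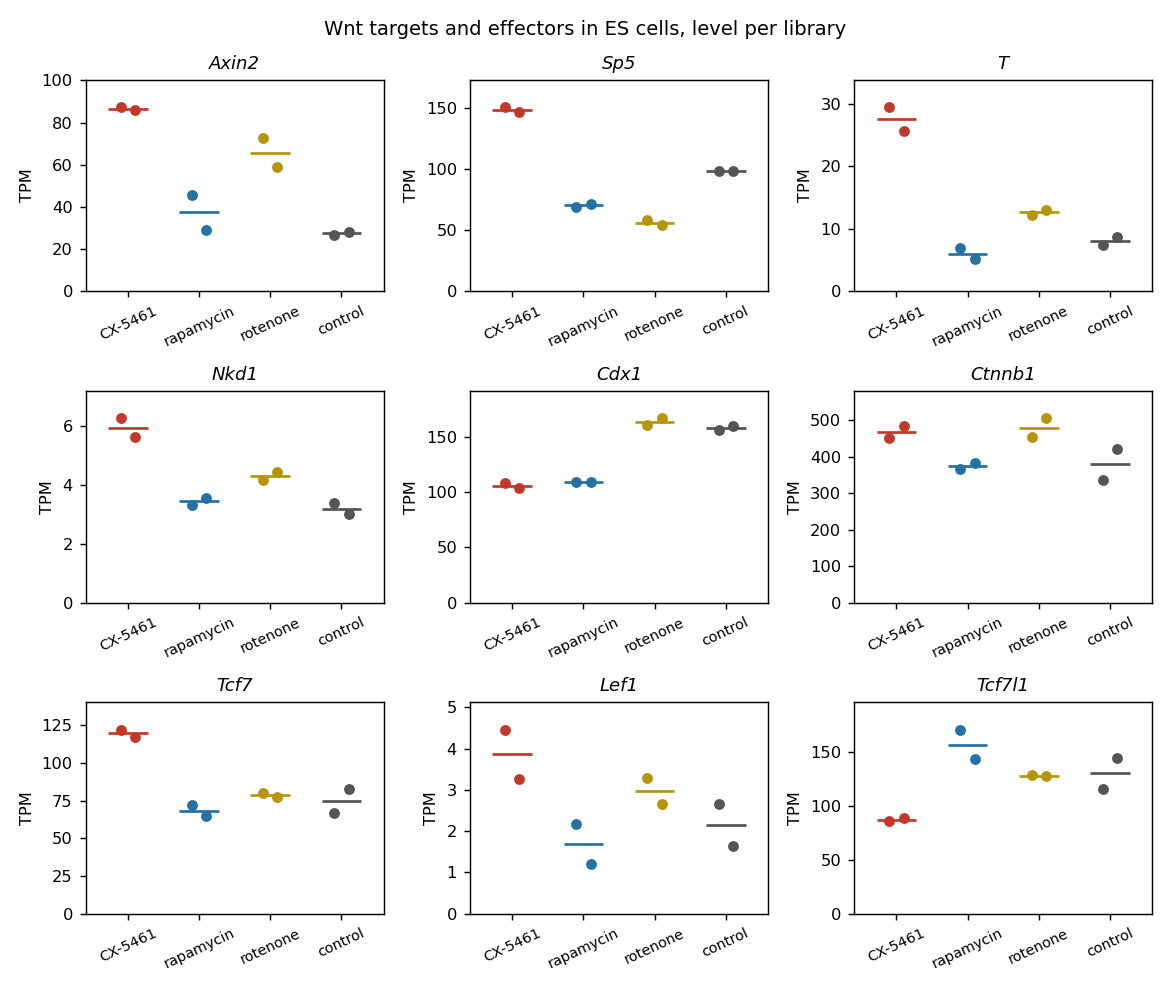
Level in TPM of each of the 9 genes (one panel each, linear axis from 0) in the 8 mES libraries, by treatment. Points are libraries and lines are means of 2, and T reached 29.4 and 25.7 TPM with CX-5461 against 7.39 and 8.66 TPM in control, while Tcf7l1 stood at 86.2 and 88.7 TPM against 116 and 144 TPM.

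T encodes Brachyury, the T-box factor of the primitive streak and nascent mesoderm (ENSMUSG00000062327, chromosome 17, 8434423 to 8442496, plus strand, GRCm38). Its level was 29.4 and 25.7 TPM in CX-5461 cells, against 7.39 and 8.66 TPM in control cells. Both CX-5461 libraries were far above both control libraries, the log2 fold change was 1.66 (SE 0.17), and limma gave an adjusted p of 0.000377. T lay 1.24 above the median change of all genes, at percentile 90.5 of them.

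Axin2 encodes a scaffold of the destruction complex that is itself induced by β-catenin and so closes a negative feedback loop (ENSMUSG00000000142, chromosome 11, 108920349 to 108950783, plus strand). It was measured at 87.2 and 85.9 TPM in CX-5461 cells, against 26.6 and 28.3 TPM in control cells. The replicates of each group lay within 2 TPM of each other, and the groups lay far apart. The log2 fold change was 1.62 (SE 0.21, limma adjusted p = 0.000856), at percentile 89.8 of all genes.

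Sp5, a zinc finger factor of the Sp family that is a direct Wnt target (ENSMUSG00000075304, chromosome 2, 70474923 to 70477729, plus strand), was already among the more abundant of the 9 in control cells. Its level was 151 and 147 TPM in CX-5461 cells, against 98.2 and 98.6 TPM in control cells. The change was 0.59 (log2, SE 0.09, limma adjusted p = 0.00176), 0.17 above the median of all genes.

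Nkd1, a feedback inhibitor that binds Dishevelled (ENSMUSG00000031661, chromosome 8, 88521354 to 88594884, plus strand), was low throughout. It stood at 6.26 and 5.62 TPM in CX-5461 cells, against 3.37 and 3.01 TPM in control cells. This rise lay 0.30 (log2) above the median of all genes, at percentile 63.9. The log2 fold change was 0.73 (SE 0.16, limma adjusted p = 0.00755), and without CX-5461 replicate 1 the adjusted p was 0.0503.

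Cdx1, a caudal-type homeobox gene that responds to Wnt and retinoic acid in the embryo (ENSMUSG00000024619, chromosome 18, 61018862 to 61036199, minus strand), was the target that moved the other way. Its level was 108 and 104 TPM in CX-5461 cells, against 156 and 160.1 TPM in control cells. The change was -0.57 (log2, SE 0.08, limma adjusted p = 0.00138), 1.00 below the median of all genes and at percentile 8.6. The ratio of T to Cdx1 within a library, which a library's total does not alter, was 0.272 and 0.247 with CX-5461, against 0.047 and 0.054 in control.

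Ctnnb1 encodes β-catenin (ENSMUSG00000006932, chromosome 9, 120929216 to 120960507, plus strand) and had the highest level of the 9 in every group. It was at 451 and 486 TPM in CX-5461 cells, against 337 and 422 TPM in control cells. The ranges did not overlap, but the change of 0.31 (log2, SE 0.12) had a limma adjusted p of 0.0675 and lay 0.11 below the median of all genes. Without control replicate 2 it was called, at 0.47 (adjusted p = 0.00985). Messenger RNA says nothing of the stability of the protein, through which the pathway works.

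Among the TCF/LEF factors, Tcf7 and Tcf7l1 moved in opposite directions. Tcf7, which encodes TCF1, mostly an activator when β-catenin is bound (ENSMUSG00000000782, chromosome 11, 52252371 to 52283014, minus strand), was at 122 and 117 TPM in CX-5461 cells, against 66.9 and 82.4 TPM in control cells. Its change was 0.68 (log2, SE 0.12, limma adjusted p = 0.00379), 0.26 above the median of all genes and at percentile 61.9. Tcf7l1, the repressor TCF3 of the ES cell literature (ENSMUSG00000055799, chromosome 6, 72626378 to 72789254, minus strand), was at 86.2 and 88.7 TPM in CX-5461 cells, against 116 and 144 TPM in control cells. Its change was -0.56 (log2, SE 0.13, limma adjusted p = 0.0115), 0.99 below the median of all genes. Without CX-5461 replicate 1 or replicate 2 its adjusted p was 0.06 or 0.0563. Lef1 (ENSMUSG00000027985, chromosome 3, 131110471 to 131224356, plus strand), a factor of the same family that is itself induced in many Wnt-responding tissues, was the scarcest of the 9. It was at 4.46 and 3.26 TPM in CX-5461 cells, against 2.67 and 1.64 TPM in control cells, a change of 0.63 (log2, SE 0.27) with a limma adjusted p of 0.0842. In all 4 mES groups Lef1 was higher in replicate 1 than in replicate 2.

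The balance of the family can be read within a library, on the length-corrected TPM scale. Summed over Tcf7, Lef1, Tcf7l1 and Tcf7l2, the family took 220 and 217 TPM with CX-5461, against 191 and 234 TPM in control. Tcf7 made up 55.5% and 54.0% of that sum with CX-5461, against 35.0% and 35.2% in control. Tcf7l1 made up 39.2% and 40.8%, against 60.8% and 61.7%. The ratio of Tcf7l1 to Tcf7 was 0.705 and 0.756 with CX-5461, so Tcf7 was the more abundant of the pair in both libraries, and 1.74 and 1.75 in control, where Tcf7l1 was. In the other treatments Tcf7l1 was also the more abundant, at ratios of 2.38 and 2.21 in rapamycin cells and 1.61 and 1.65 in rotenone cells. The ranges of the 4 groups did not overlap, and CX-5461 was the one treatment whose libraries had a ratio below 1.

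**Figure D2:**
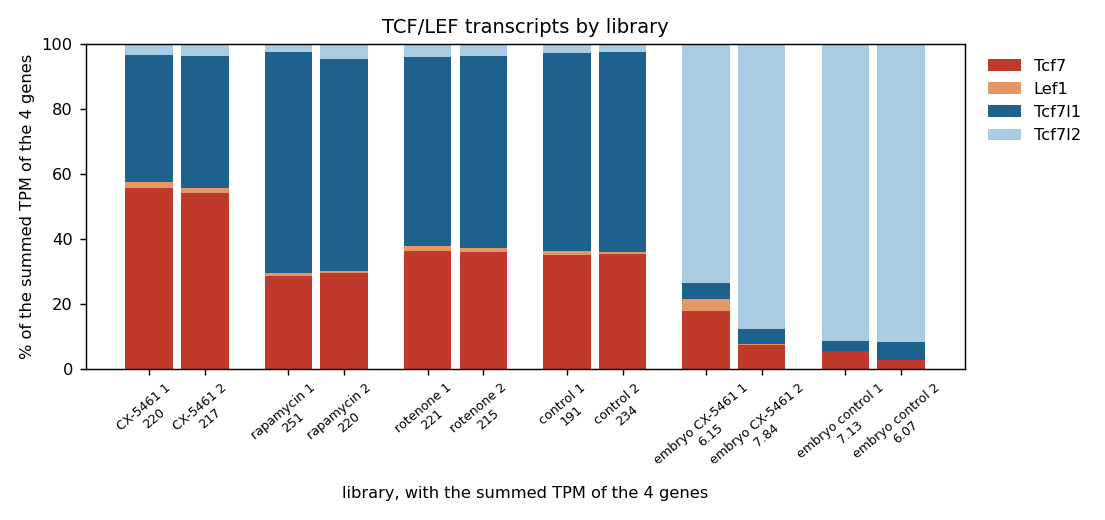
Share of the summed TPM of the 4 TCF/LEF genes taken by each gene (vertical axis, percent) in every library (horizontal axis, with the summed TPM of the 4 genes under each name). Tcf7 held 55.5% and 54.0% in CX-5461 mES cells against 35.0% and 35.2% in control mES cells, and Tcf7l2 held 73.6% to 91.8% in the 4 embryo libraries, where the sum was only 6.07 to 7.84 TPM.

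The size of these changes depended on how the libraries were scaled. Scaling by median ratios brought the median change of all genes down to 0.03 (log2), and the share of calls that were higher to 51.7%, from 79.3% on TPM. Quantile scaling gave 47.6% and removal of a trend with exon length 47.5%. Under each of these 3 scalings Axin2 (1.06 to 1.28) and T (1.05 to 1.34) stayed called as higher, and Cdx1 (-1.05 to -0.68) and Tcf7l1 (-1.04 to -0.71) as lower. With median ratios Sp5 (0.11), Tcf7 (0.20) and Nkd1 (0.33) were no longer called. Nkd1 turned to -0.02 under quantile scaling and was 0.22 and not called after the length correction. Lef1 turned to -0.09 and -0.07 under quantile scaling and length correction. Ctnnb1 was called at 0.49 under quantile scaling and stood at -0.17 and -0.23 with median ratios and length correction. On TPM, Axin2, T, Sp5, Tcf7 and Cdx1 kept their calls without any one of the 4 libraries compared.

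**Figure D3:**
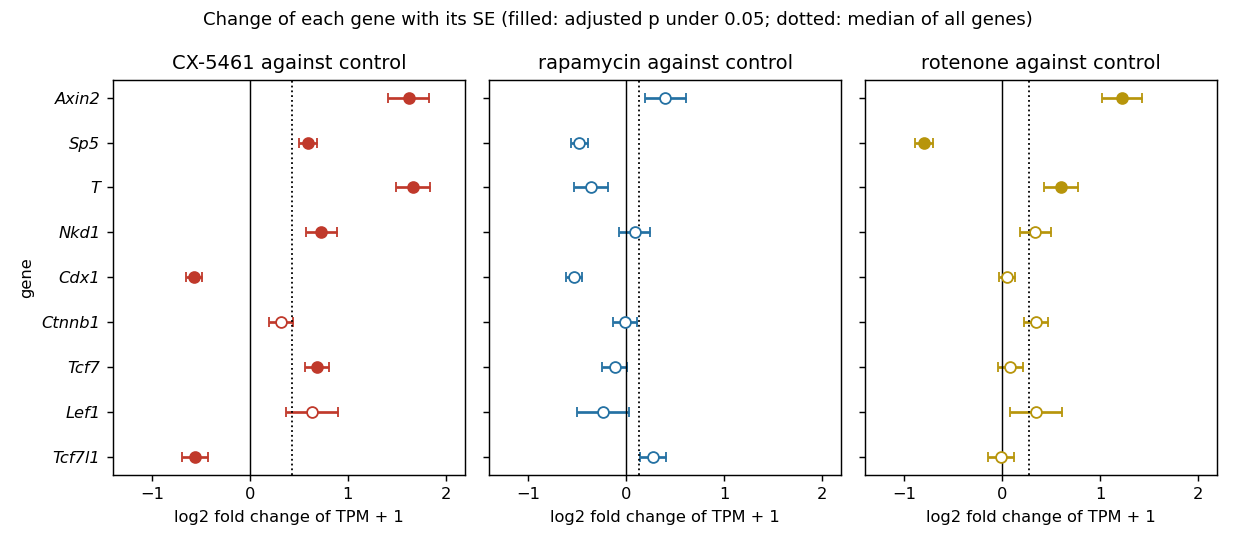
Log2 fold change of TPM + 1 (horizontal axis) with its standard error for each of the 9 genes (vertical axis) in each treatment against control in mES cells. Filled points had a limma adjusted p under 0.05 and the dotted line is the median of all genes tested, and Sp5 stood at 0.59 with CX-5461, -0.48 with rapamycin and -0.80 with rotenone.

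Rotenone against control separated the targets from one another. Axin2 and T rose and Sp5 fell, and the other 6 genes did not pass the test. Over all genes, 30.6% were called higher and 9.57% lower, with a median change of 0.27, against 2 and 1 of these 9. This comparison used the same control libraries as the one before. Axin2 was at 72.6 and 58.9 TPM in rotenone cells, against 26.6 and 28.3 TPM in control cells, a change of 1.22 (log2, SE 0.21, limma adjusted p = 0.00549). Sp5 was at 58.3 and 54.2 TPM in rotenone cells, the lowest of the 4 groups, against 98.2 and 98.6 TPM in control cells, a change of -0.80 (SE 0.09, limma adjusted p = 0.00151). Both calls held under all 3 other scalings.

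The ratio of Axin2 to Sp5 within a library shows the same contrast and does not depend on the library's total. It was 0.579 and 0.586 in CX-5461 cells, 0.659 and 0.41 in rapamycin cells, 1.25 and 1.09 in rotenone cells, and 0.271 and 0.287 in control cells. Every treated library was above both control libraries. T was at 12.3 and 13.0 TPM in rotenone cells, against 7.39 and 8.66 TPM in control cells. It was called higher after the length correction (0.50, limma adjusted p = 0.0456) and on TPM (0.60, log2, SE 0.17, limma adjusted p = 0.0312). That call was weak: the adjusted p was 0.108 and 0.134 without rotenone replicate 1 or 2 and 0.117 without control replicate 1, and the change was 0.30 with median ratios and 0.10 under quantile scaling, not called in either.

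Cdx1 was at 161 and 167 TPM in rotenone cells, against 156 and 160.1 TPM in control cells, a change of 0.05 (SE 0.08, limma adjusted p = 0.639) that turned to -0.28 with median ratios. Ctnnb1 was at 453 and 505 TPM in rotenone cells, against 337 and 422 TPM in control cells (0.34, SE 0.12, limma adjusted p = 0.061), and was called at 0.51 without control replicate 2 (adjusted p = 0.0112). Nkd1 stood at 4.16 and 4.44 TPM in rotenone cells, against 3.37 and 3.01 TPM in control cells (0.34, SE 0.16, adjusted p = 0.122). The factors overlapped control. Tcf7 was at 80.1 and 77.3 TPM, Tcf7l1 at 129 and 128 TPM and Lef1 at 3.29 and 2.66 TPM in rotenone cells, with changes of 0.08, -0.02 and 0.35. Tcf7l1 was called lower with median ratios (-0.35) and after the length correction (-0.30).

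Rapamycin against control gave no call among the 9 genes, in a comparison where 0% of all genes were called higher and 0.0113% lower (2 genes) by limma. Without adjustment, 1842 were higher and 509 lower with p under 0.05. Without control replicate 2 the count over all genes was 339 higher and 26 lower, and without control replicate 1 it was 16 and 3, with no call among the 9 in either case. Cdx1, Sp5, T and Axin2 did not overlap control, 4 of 9, where the groups of 40.8% of all genes tested did not overlap. Cdx1 was at 109 and 109.5 TPM in rapamycin cells, against 156 and 160.1 TPM in control cells, a change of -0.53 (log2, SE 0.08, limma adjusted p = 0.145). Sp5 was at 69.2 and 71.6 TPM in rapamycin cells, against 98.2 and 98.6 TPM in control cells, a change of -0.48 (SE 0.09, limma adjusted p = 0.188). Their changes were at percentiles 2.3 and 2.9 of all genes.

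T was at 6.88 and 5.24 TPM in rapamycin cells, just under the 7.39 and 8.66 TPM of control cells (-0.36, SE 0.17, limma adjusted p = 0.403). Axin2 was uneven between the rapamycin libraries, at 45.6 and 29.3 TPM against 26.6 and 28.3 TPM in control, a change of 0.40 (SE 0.21, adjusted p = 0.414). Fibroblast markers were uneven in the same pair, 2433 and 1884 TPM, and in the control pair, 1074 and 1448 TPM. Their part in the level of Axin2 was not tested. The other 5 genes overlapped control. Tcf7l1 was at 171 and 143 TPM with rapamycin (0.27, SE 0.13), its highest mean of the 4 groups. Tcf7 was at 72.0 and 64.9 TPM (-0.12), Lef1 at 2.17 and 1.20 TPM (-0.24), Nkd1 at 3.32 and 3.57 TPM (0.09) and Ctnnb1 at 367 and 383 TPM (-0.01).

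Setting the treatments against each other leaves the control libraries out of the fold changes, though not out of the shared estimate of the spread. CX-5461 against rapamycin had 6 genes called higher, T (2.02), Axin2 (1.22), Sp5 (1.07), Lef1 (0.87), Tcf7 (0.80) and Nkd1 (0.64), and 1 lower, Tcf7l1 (-0.83), where 30.9% of all genes were called higher and 8.76% lower. Of the 12 fibroblast markers, 11 were called higher in this comparison. Cdx1, low in both groups, differed by -0.04 (SE 0.08, limma adjusted p = 0.717) but was called lower at -0.35 with median ratios and at -0.26 after the length correction. Lef1 and Nkd1 lost their calls under all 3 other scalings. They also lost them without single libraries, where the adjusted p reached 0.189 for Lef1 and 0.0974 for Nkd1.

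In CX-5461 against rotenone the fibroblast marker sums lay close, and 2 of the 12 markers were called. Sp5 (1.39, SE 0.09, limma adjusted p = 0.000319), T (1.06, SE 0.17, adjusted p = 0.00603) and Tcf7 (0.60, SE 0.12, adjusted p = 0.0155) were higher with CX-5461, and Cdx1 (-0.62, SE 0.08, adjusted p = 0.00284) and Tcf7l1 (-0.55, SE 0.13, adjusted p = 0.0285) were lower. Over all genes 17.2% were called higher and 4.93% lower. These 5 calls held under the 3 other scalings. Sp5 and Cdx1 kept their calls without any one of the 4 libraries compared, T lost its call without CX-5461 replicate 1 (adjusted p = 0.0608), and Tcf7 and Tcf7l1 lost theirs without any one of the 4 libraries. Axin2, at 87.2 and 85.9 TPM with CX-5461 against 72.6 and 58.9 TPM with rotenone, differed by 0.40 (SE 0.21, adjusted p = 0.219).

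Rotenone against rapamycin had T (0.96), Axin2 (0.82) and Cdx1 (0.58) called higher and Sp5 (-0.32, limma adjusted p = 0.0463) called lower, where 14.9% of all genes were called higher and 6.2% lower. All 4 calls ended when either rotenone library was left out, where the calls over all genes dropped to 657 without replicate 1 and 885 without replicate 2, against 3723 with all libraries. Sp5 also lost its call without either rapamycin library, and Axin2 and T lost theirs without rapamycin replicate 2. Axin2 was also not called after the length correction (0.57, adjusted p = 0.0602).

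The order of the groups differed between the targets. Separation of 2 pairs of libraries was common: the groups did not overlap for 6 of the 9 genes in rotenone against control, where this held for 73.3% of all genes tested, for 9 in CX-5461 against rapamycin (72.5%), for 7 in CX-5461 against rotenone (69.4%) and for 9 in rotenone against rapamycin (67.2%). Axin2 ran from CX-5461 through rotenone and rapamycin to control, with no overlap between neighbours, and the summed fibroblast markers had that same order of group means. T was highest with CX-5461, then rotenone, control and rapamycin, again with no overlap. Sp5 ran from CX-5461 through control and rapamycin to rotenone, and Cdx1 from rotenone through control and rapamycin to CX-5461, in each case without overlap. In Tcf7 only CX-5461 stood clear above the rest, and in Tcf7l1 only CX-5461 stood clear below. For Lef1 each group overlapped the next. Nkd1 was highest with CX-5461 and then with rotenone, above rapamycin and control, which overlapped. Its group means, like those of Axin2, had the order of the summed fibroblast markers. Ctnnb1 overlapped between CX-5461 and rotenone, and both lay above rapamycin and control, which overlapped as well.

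**Figure D4:**
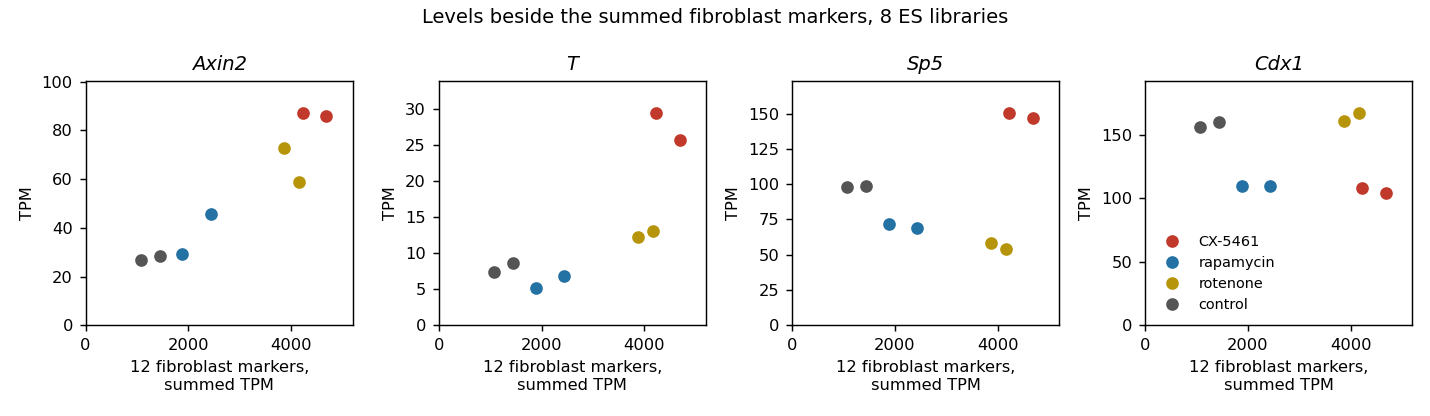
Level in TPM of Axin2, T, Sp5 and Cdx1 (vertical axes) against the summed TPM of 12 fibroblast markers (horizontal axis) in the 8 mES libraries, coloured by treatment. Rotenone and CX-5461 libraries lie side by side on the horizontal axis, at 3865 to 4681 TPM, where Sp5 is at 58.3 and 54.2 TPM with rotenone but 151 and 147 TPM with CX-5461.

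Feeder cells express Wnt pathway genes as well, and their markers moved with treatment. The part of the fibroblast markers in the results of the targets was not tested. Axin2, T and Nkd1, like the marker sum, stood above control with CX-5461 and with rotenone. With rotenone the marker sum was 3865 and 4157 TPM and Sp5 was lower than in control. Cdx1 was 108 and 104 TPM with CX-5461 but 161 and 167 TPM with rotenone at similar marker sums. Markers of primitive endoderm also moved with CX-5461, with a sum of 26.5 and 29.1 TPM over 6 genes, against 4.04 and 4.32 TPM in control, and 3 of the 4 tested were called higher. Of 7 primed and mesendoderm markers tested, 3 were called higher and 2 lower with CX-5461. Over all genes, 42% were called higher and 11% lower. Mesp1 and Tbx6, both called higher, passed the filter only through the CX-5461 libraries. They averaged 1.94 and 1.53 TPM there, against 0.056 and 0.439 TPM in control. Pou3f1 was also called higher, at a mean of 4.04 TPM with CX-5461 against 1.78 TPM in control (0.85, log2). Called lower were Gsc, at a mean of 6.96 TPM against 26.1 TPM (-1.77), and Otx2, at 1.88 TPM against 4.92 TPM (-1.04). The part of the primed and mesendoderm markers in the rise of T was not tested.

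For the rest of the pathway, 101 further genes were grouped by role, of which 88 were tested in mES cells. With CX-5461 against control, 51 of the 88 were called higher and 6 lower on TPM, where 42% of all genes were called higher and 11% lower. Their median change was 0.61, against 0.43 for all genes. With median ratios the counts were 31 and 15, under quantile scaling 29 and 13, and after the length correction 29 and 18. The filter keeps a gene that is high in 2 libraries alone, and 9 of the 88 passed it only through the CX-5461 libraries. Of 16 ligand-role genes tested, 15 were called higher on TPM, and 10 or 11 under the 3 other scalings, but 5 of the 16 passed the filter only through the CX-5461 libraries, so a level of at least 1 TPM with CX-5461 was a condition of testing them. Wnt8a, a Wnt of the early primitive streak, was at 8.12 and 9.58 TPM with CX-5461, against 0.0819 and 0.248 TPM in control (3.08, SE 0.19). Wnt5a, mostly a noncanonical ligand that fibroblasts also make, averaged 19.3 ± 0.15 TPM, against 1.56 ± 0.36 TPM (SD, n = 2 each). Wnt9a averaged 26.1 ± 3.5 TPM, against 2.82 ± 0.04 TPM. The one ligand-role gene not called was Porcn, the acyltransferase that makes Wnt proteins active (-0.13, limma adjusted p = 0.346).

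With CX-5461, 42% of all genes were called higher and 11% lower. Among receptors and their regulators 10 of 20 were called higher and none lower. Of these 20, 1 passed the filter only through the CX-5461 libraries. Among those averaging 5 TPM or more in either group, the Frizzled receptors Fzd1 (2.01), Fzd7 (1.08) and Fzd8 (0.95) had the largest changes. The secreted antagonists and their co-receptors were split, with 6 higher and 3 lower of 12. Of these 12, 2 passed the filter only through the CX-5461 libraries. Notum, a secreted enzyme that inactivates Wnt proteins, was at 42.5 and 48.9 TPM with CX-5461, against 109 and 116 TPM in control (-1.28, SE 0.11, limma adjusted p = 0.000171). Sfrp1, a secreted decoy receptor, stood at 10.1 and 12.1 TPM in CX-5461 cells, against 29.3 and 38.4 TPM in control cells (-1.52, SE 0.17, adjusted p = 0.000521). Kremen1, a DKK co-receptor, rose by 1.37 (log2, SE 0.23).

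In the destruction complex and relay 10 of 14 were called higher with CX-5461, where 42% of all genes were called higher. Of these 14, 1 passed the filter only through the CX-5461 libraries. Among those averaging 5 TPM or more in either group, Dvl3 (1.98), Apc (1.04) and Csnk1e (0.92) had the largest changes, and the control libraries of Dvl3 were themselves apart at 8.65 and 25.2 TPM. Dvl3 encodes Dishevelled, which relays the receptor signal, and Apc a scaffold of the complex. Of 12 nuclear partners 4 were called higher, among them the co-activator Bcl9l (1.70), the co-repressor Tle3 (0.91) and the β-catenin relative Jup (0.66). Of 9 other targets tested 6 were called higher, among them the matricellular gene Wisp1 (1.78) and Myc (0.97). Of 5 pluripotency genes that TCF7L1 is known to hold down in ES cells, 3 were called lower with CX-5461 and 0 higher. Over all genes, 11% were called lower. Tcf7l1 itself was lower in that group, and its part in these changes was not tested. Esrrb averaged 181 TPM with CX-5461, against 106 TPM in control (0.84, limma adjusted p = 0.143). Neither Esrrb nor Tfcp2l1 was called. Klf2 stood at 285 and 252 TPM with CX-5461, against 553 and 579 TPM in control (-1.08, SE 0.10), Nr0b1 changed by -0.53 and Nanog by -0.29, the last turning to 0.04 under quantile scaling. Apc lost its call without CX-5461 replicate 1 or control replicate 1 (adjusted p = 0.0699 and 0.058), Tle3 and Dvl3 without CX-5461 replicate 2 (0.131 and 0.0647), Tle3 also without control replicate 1 (0.0908), and Nanog without either CX-5461 library or control replicate 2 (up to 0.151). Apc and Tle3 were not called under any of the 3 other scalings, nor Jup with median ratios or length correction, Fzd8 under quantile scaling or length correction, or Myc under quantile scaling. With median ratios 3 of the 14 destruction-complex genes were called higher and 2 lower, and 1 of the 12 nuclear partners higher and 3 lower.

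**Figure D5:**
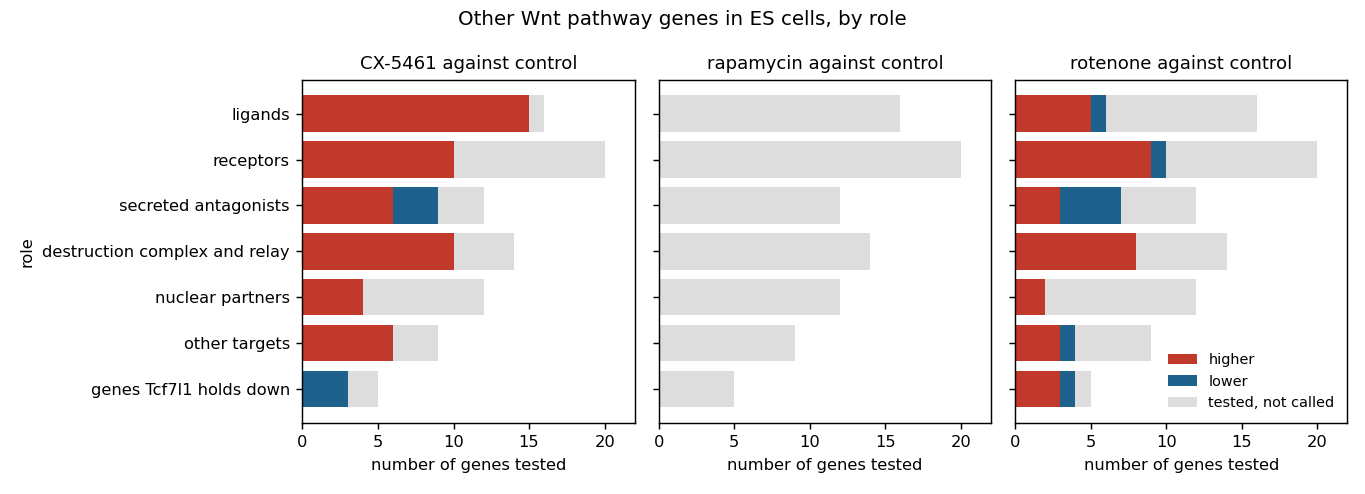
Number of further Wnt pathway genes tested in mES cells (horizontal axis) by role (vertical axis), split into those called higher, called lower and not called against control, for each treatment. With CX-5461, 15 of 16 ligand-role genes were called higher, against 5 of 16 with rotenone and 0 of 16 with rapamycin. Over all genes these shares were 42%, 30.6% and 0%. Of the 16, 5 passed the filter only through the CX-5461 libraries.

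With rotenone against control, 33 of the 88 were called higher and 8 lower on TPM, near the 30.6% higher and 9.57% lower of all genes. Their median change was 0.41, against 0.27 for all genes. The counts were 22 and 14 with median ratios, 24 and 13 under quantile scaling and 17 and 15 after the length correction, and the share of all calls that were higher was 50.2%, 49.8% and 46.1% there, against 76.2% on TPM. Of 16 ligand-role genes 5 were higher and 1 lower. Wls, the carrier that takes Wnt proteins to the cell surface, was at 94.9 and 91.5 TPM with rotenone, against 13.2 and 20.3 TPM in control (2.44, SE 0.18). Wnt5a rose by 1.77 and Wnt9a by 1.32 on the log2 scale. Of 20 receptor-role genes 9 were higher, among them Rspo3 (1.56), Fzd1 (1.54) and Fzd7 (1.02), and 1 was lower.

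The antagonists were again split with rotenone, 3 higher and 4 lower of 12. Over all genes, 30.6% were called higher and 9.57% lower. Notum stood at 60.3 and 58.2 TPM in rotenone cells, against 109 and 116 TPM in control cells (-0.91, SE 0.11, limma adjusted p = 0.00171), as with CX-5461 below both control libraries. Sfrp1 stood at 58.1 and 56.9 TPM in rotenone cells, against 29.3 and 38.4 TPM in control cells (0.76, SE 0.17, adjusted p = 0.0142), the opposite side of control from its level with CX-5461. Kremen1 rose by 1.13. In the destruction complex 8 of 14 were higher, and among those averaging 5 TPM or more in either group Dvl3 (1.72), Apc (1.70) and Csnk1a1 (0.91) had the largest changes.

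Of 12 nuclear partners 2 were called higher with rotenone, Tle3 (1.21) and Jup (0.45), and Jup turned to -0.06 after the length correction. The share of all genes called higher was 30.6%, and of those called lower 9.57%. Of 9 other targets 3 rose, among them Wisp1 (2.01) and Myc (0.41, but -0.03 under quantile scaling), and Bambi, a decoy receptor for TGF-β signals, fell (-0.81). Of the 5 genes held down by TCF7L1, Esrrb was at 398 and 381 TPM with rotenone, against 71.1 and 141 TPM in control (1.95, SE 0.43, limma adjusted p = 0.0137). Tfcp2l1 rose by 0.72 and Nr0b1 by 0.42, while Klf2 fell by 1.07 on the log2 scale. Wisp1 and Wnt5a are also made by fibroblasts, whose 12 markers were all called higher in the same comparison, and their part in these counts was not tested. Without rotenone replicate 1 the calls of Bambi, Dvl3, Esrrb, Jup, Kremen1, Myc, Sfrp1, Tfcp2l1 and Tle3 ended (adjusted p from 0.0532 to 0.14), and all of these but Bambi also ended without rotenone replicate 2 (0.0607 to 0.24). Without control replicate 1 those of Dvl3, Esrrb, Jup, Myc, Sfrp1 and Tfcp2l1 ended (0.055 to 0.144), and without control replicate 2 that of Myc (0.103).

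With rapamycin none of the 88 genes was called by limma, and their median change was 0.25 against 0.13 for all genes. Among the most abundant genes of their roles, Notum had 91.5 and 97.4 TPM in rapamycin cells, against 109 and 116 TPM in control cells (-0.25, limma adjusted p = 0.382), and Nanog averaged 794 ± 27 TPM, against 783 ± 79 TPM (SD, n = 2 each). Wls differed by 0.82 (adjusted p = 0.206).

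For each of the 9 genes, the genes whose log2(TPM + 1) followed it most closely over the 8 mES libraries were found by Pearson correlation among genes averaging 5 TPM or more. The points fall into 4 groups of 2 libraries and share those groups, so high values are common. Axin2 was followed most closely by Cyp4f13 (0.996) and Il4ra (0.993), T by Soat2 and Ak1 (0.993 each), and Tcf7 by Glul (0.991) and RP24-278I6.1 (0.989). For Axin2 715 genes were above 0.95, for Nkd1 447, for T 274 and for Tcf7 155, but for Tcf7l1 only 56, for Sp5 29, for Ctnnb1 21, for Cdx1 2 and for Lef1 0. Tcf7l1 was nearest to Actg1 (0.993) and B4galnt4 (0.991), Sp5 to Lxn and Spryd4 (0.986 each), Cdx1 to Stmn3 (0.957) and Nupr1 (0.955), Nkd1 to Ppm1d (0.996) and S100a4 (0.995), Ctnnb1 to Dcaf8 (0.991) and P2rx4 (0.975), and Lef1 to RP24-315N18.1 (0.942) and Casp6 (0.939).

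In embryos the target genes were near or at zero, and CX-5461 against control gave no call among the 9. Over 13289 genes tested, 0.00753% were called higher (1 gene) and 0% lower by limma, with 1151 higher and 495 lower at an unadjusted p under 0.05. That count rests on single libraries: it was 1130 higher and 1578 lower without CX-5461 replicate 2, 144 and 46 without CX-5461 replicate 1, 15 and 5 without control replicate 1, 48 and 3 without control replicate 2, and 438 and 31 on TPM as deposited. No gene of the 9 was called in any of these. Sp5 and T were listed at 0 in all 4 libraries. Nkd1 was listed at 0 in 3 of them and at 0.0324 TPM in CX-5461 replicate 2. In mES cells both Sp5 and T were above 5 TPM in every library.

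Ctnnb1 was the one gene of the 9 with a sizeable level in embryos. It was at 98.4 and 90.6 TPM in CX-5461 embryos, against 95.4 and 87.3 TPM in control embryos, a change of 0.05 (log2, SE 0.26, limma adjusted p = 0.951) with overlapping groups. Axin2 was at 2.83 and 0.279 TPM in CX-5461 embryos, against 1.52 and 0.393 TPM in control embryos, so replicate 1 was above replicate 2 in both groups and the change of 0.24 (SE 0.56, adjusted p = 0.872) was smaller than its error and turned to -0.19 without control replicate 2. The other 7 genes did not pass the filter and were not tested.

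Tcf7 was at 1.10 and 0.579 TPM in CX-5461 embryos, against 0.380 and 0.154 TPM in control embryos, without overlap but close to the floor of the scale, in a comparison where 46.8% of all genes tested did not overlap. Tcf7l1 was at 0.313 and 0.346 TPM, against 0.216 and 0.341 TPM. Lef1 was at 0.215 and 0.0260 TPM in CX-5461 embryos and listed at 0 in both control embryo libraries, and Cdx1 was at 0.328 and 0 TPM, against 0.0632 and 0.0649 TPM. The family was therefore carried by Tcf7l2, at 4.52 and 6.89 TPM in CX-5461 embryos, against 6.54 and 5.57 TPM in control embryos. The 8 trophectoderm markers summed to 4487 to 6362 TPM in embryos, most of it Krt18, and the 12 fibroblast markers to 8.66 to 12.1 TPM, with 5 to 7 of them listed at 0. Of the 101 further pathway genes 40 were tested in embryos and none was called. The mES and embryo tables were made from different library protocols, so levels were not tested between them.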

How the data were processed

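The authors deposited gene levels in TPM, 1 table for 8 mES libraries and 1 for 4 embryo libraries, in 6 groups of 2 named by the labels. By the study's methods and processing notes, reads (CASAVA 1.8) were trimmed with Trimmomatic, mapped to mm10 with HISAT2, freed of duplicates with Picard and, when uniquely mapped, quantified by StringTie on GENCODE M18. No strand setting is stated, so reads of overlapping antisense genes cannot be told apart. The study's own DESeq2 tests used counts that were not used here.

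Each library was rescaled to 1000000, and log2(TPM + 1) was fitted with limma 3.58.1 in R 4.3.3 (empirical Bayes with a trend, 2-sided, Benjamini-Hochberg over all genes tested), the 8 mES libraries in 1 fit of 4 groups and the 4 embryo libraries in another. Genes needed at least 1 TPM in at least 2 libraries. The fits were tested on simulated data. The fold change on this scale understates the change of low genes. Positions are from GENCODE M21 on GRCm38 (53620 of 53715 IDs matched), promoter windows from RefSeq. No sample column was left unmapped (0).

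Named were the 9 genes in every library and, per role of the pathway list, the 3 called genes of largest change that averaged 5 TPM or more in either group, or otherwise the most abundant gene. Marker lists are given by counts and sums, and the 2 nearest patterns per gene by correlation. Other genes in the text were picked after their values were seen. The 9 genes and all lists were chosen with earlier results of these data known. Alternatives were the pseudocount, the low-level filter, 3 other scalings, unscaled TPM, a prior without trend, a replicate block, a fold minimum, 2-group fits and leaving out each library. The values of 1 gene of the pathway lists are not reported here.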

Additional observations from a re-analysis of the deposited data

How the results depend on the processing

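Of the 9 genes, 7 were called for CX-5461 against control in mES cells, 4 with median-ratio scaling, 1 with a log2 fold minimum of 1 and 5 to 8 when each library was left out in turn. For CX-5461 against rapamycin the 7 calls became 1 with the fold minimum and 5 to 6 with a library left out, and for rotenone against control the 3 became 0 and 2 to 4. For CX-5461 against rotenone the 5 calls became 0 with the fold minimum and 2 to 3 with a library left out. For rotenone against rapamycin the 4 calls became 2 without a low-level filter, 0 with the fold minimum and 0 to 3 with a library left out. Rapamycin against control and the embryos stayed at 0 calls under every alternative run.

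Same-numbered libraries did not vary together (correlations of their deviations -0.30 to 0.17 between mES groups and 0.05 in embryos), so the numbers do not pair the samples. With a replicate block the counts were 9 for CX-5461 against control (Lef1 at an adjusted p of 0.0319 and Ctnnb1 at 0.0454 were added), 0 for rapamycin and 3 for rotenone against control (Ctnnb1 at 0.0459 was added and T at 0.0545 lost), 7 for CX-5461 against rapamycin, 4 for CX-5461 against rotenone, 3 for rotenone against rapamycin and 0 in embryos.

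Log2 fold changes that changed sign were these. With median-ratio scaling Ctnnb1 was -0.17 for CX-5461 against control and -0.085 in embryos, Nkd1 -0.051 for rapamycin against control, and Tcf7 -0.25 and Cdx1 -0.28 for rotenone against control. With quantile scaling Lef1 was -0.094, Nkd1 -0.022 and Nanog 0.035 for CX-5461 against control, Nkd1 -0.15 and Ctnnb1 0.035 for rapamycin against control, Lef1 -0.028, Tcf7 -0.074, Nkd1 -0.076 and Myc -0.035 for rotenone against control, and Lef1 -0.066 and Ctnnb1 0.025 for CX-5461 against rotenone. After removal of the exon length trend Lef1 was -0.074 and Ctnnb1 -0.23 for CX-5461 against control, Nkd1 -0.079 for rapamycin against control, Lef1 -0.31, Tcf7 -0.054, Nkd1 -0.015, Ctnnb1 -0.070 and Jup -0.063 for rotenone against control, and Ctnnb1 -0.041 for CX-5461 against rapamycin. With each library left out in turn, ranges that crossed 0 were -0.50 to 0.024 for Lef1, -0.27 to 0.032 for Tcf7 and -0.17 to 0.16 for Ctnnb1 in rapamycin against control, -0.066 to 0.23 for Tcf7 and -0.17 to 0.14 for Tcf7l1 in rotenone against control, -0.11 to 0.046 for Ctnnb1 in CX-5461 against rotenone, and -0.19 to 1.03 for Axin2 and -0.015 to 0.11 for Ctnnb1 in embryos. Nkd1 (CX-5461), Jup, Myc and Nanog were called before the change of sign, and the cause was not tested. Each group had 2 libraries and no read counts, and Lef1 had the largest standard error of the 9 genes in the mES fit (0.27).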
